A study of Mus musculus with 12 samples.

Results

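The transcripts of 6 matrix metalloproteinases (Mmp2, Mmp3, Mmp9, Mmp12, Mmp14 and Mmp19) and of all 4 tissue inhibitors of metalloproteinases (Timp1, Timp2, Timp3 and Timp4) were followed in mouse brain after cerebral ischemia-reperfusion. These 10 genes were taken by name from a table of read counts for 39756 genes, and all 10 were present and had enough counts to be tested, as did 17558 genes in all. RNA was sequenced from ischemic hemispheres of 12 C57BL/6J mice, 4 in each of 3 groups. The study's methods describe male mice of 9 to 10 weeks. Sham mice underwent sham surgery. In Vehicle mice the middle cerebral artery was closed for 45 min with a filament and then reopened (transient occlusion, tMCAO). LJP mice underwent the same tMCAO and received Laminaria japonica polysaccharide (LJP), a sulfated polysaccharide from brown seaweed, into the stomach daily from 14 days before tMCAO and on after it, while Sham and Vehicle mice received equal volumes of saline. The study tested 3 doses of LJP and carried the middle one (LJP-M) forward after dose finding. The time of sampling of the sequenced mice is not given in the sources used here. Because dosing began before the occlusion, the LJP group is a pretreatment model. In RNA of a whole hemisphere, fewer cells of a type and less RNA per cell cannot be told apart. Each label names 1 replicate mouse, and all samples carry the same batch label.

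Matrix metalloproteinases are zinc-dependent endopeptidases that are made as inactive precursors and cut extracellular matrix, basement membrane and tight junction proteins. TIMPs bind the active site of these enzymes, and the balance between protease and inhibitor sets how much matrix is degraded. In the ischemic brain the family is known for its part in opening of the blood-brain barrier, in entry of leukocytes and, later, in vascular remodeling. Mmp2 and Mmp9 are the gelatinases, Mmp3 is stromelysin-1, Mmp12 is the macrophage metalloelastase, and Mmp14 is a membrane-anchored enzyme that activates pro-Mmp2 together with Timp2. Mmp19 is a secreted protease of basement membrane components. Timp1 is the inducible inhibitor, Timp2 is widely expressed at a steady level, and Timp3 is held in the matrix and also inhibits ADAM proteases.

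Of the 10 genes, 7 have a promoter in the RefSeq table of build GRCm38.p6 (all but Mmp2, Mmp9 and Mmp19). The 250 bases before the transcription start are shown 5′ to 3′ for 3 genes whose transcripts were scarce in Sham brain and higher in the Vehicle group, and for Timp3, whose level hardly differed between groups. Capitals mark a match to the AP-1 motif TGANTCA, the binding sequence of Fos and Jun proteins. The windows are chr9:7445572-7445821 (Mmp3), chr9:7347124-7347373 (the second of 2 listed starts of Mmp12), chrX:20869916-20870165 (Timp1) and chr10:86300162-86300411 (Timp3), all on the plus strand.
Mmp3: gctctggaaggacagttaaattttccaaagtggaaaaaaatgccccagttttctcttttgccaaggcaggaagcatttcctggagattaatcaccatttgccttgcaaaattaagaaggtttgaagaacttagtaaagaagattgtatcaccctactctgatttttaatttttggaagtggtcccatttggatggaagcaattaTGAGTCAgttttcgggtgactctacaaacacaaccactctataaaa
Mmp12: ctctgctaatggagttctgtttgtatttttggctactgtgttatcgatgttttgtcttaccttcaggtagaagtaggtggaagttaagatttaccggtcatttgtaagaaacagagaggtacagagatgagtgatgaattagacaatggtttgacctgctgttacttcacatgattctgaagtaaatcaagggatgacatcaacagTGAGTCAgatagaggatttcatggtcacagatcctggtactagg
Timp1: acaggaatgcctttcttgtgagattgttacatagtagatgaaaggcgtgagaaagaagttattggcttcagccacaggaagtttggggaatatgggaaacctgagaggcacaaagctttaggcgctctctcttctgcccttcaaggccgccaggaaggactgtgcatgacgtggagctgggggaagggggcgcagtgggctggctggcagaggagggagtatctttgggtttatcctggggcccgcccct
Timp3: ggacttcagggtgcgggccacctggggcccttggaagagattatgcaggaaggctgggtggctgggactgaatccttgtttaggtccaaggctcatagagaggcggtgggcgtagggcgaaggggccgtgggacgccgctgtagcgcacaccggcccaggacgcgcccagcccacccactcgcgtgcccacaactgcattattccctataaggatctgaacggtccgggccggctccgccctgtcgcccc

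Both strands were searched. Among the 7 genes, TGANTCA was found in Mmp3, 46 bases before the start, and in the second window of Mmp12, 44 bases before that window's start, with the same letters (TGAGTCA) in both. The first window of Mmp12, at the start of the gene, had no match. Of all 32851 promoter windows of this length, 6.75% hold the motif. The Mmp3 window also holds a TATA box (TATAAA) 7 bases before the start, as do 12.4% of all windows. A GC box (GGGCGG), present in 32.7% of all windows, was found in Mmp14, Timp1, Timp2 and Timp3. The STAT motif TTCNNNGAA (7.02% of windows) and the NF-kappa B motif (3.90%) had no match in the 7 genes. The windows of Mmp3 and Mmp12 had GC contents of 37.6% and 39.6%, against 54.4% for Timp1, 65.6% for Timp3 and 68.0% for Timp2. These matches describe letters only, and no binding was measured.

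Total counts per mouse lay between 17960353 and 22216315, and levels are given as CPM, counts scaled to the normalized library size. A count of 0 allows for up to 3 counts, or 0.129 to 0.173 CPM. The tissue carried the markers of brain, with a summed level of 10 neuron markers between 4485 and 7983 CPM. Vehicle mice were not alike. Mice 1 and 2 had the higher summed neutrophil markers (215 and 79.0 CPM, against 18.2 and 30.3 CPM in mice 3 and 4) and the higher endothelial markers (821 and 1769 CPM, against 366 and 446 CPM), and mouse 2 had 1585 CPM of fibroblast and meningeal markers where the other 3 had 247 to 390 CPM. Choroid plexus markers also split the mice, at 29.3 and 30.9 CPM in Vehicle mice 1 and 2 and 554 and 511 CPM in mice 3 and 4, and ranged from 35.5 to 944 CPM among Sham mice and from 25.8 to 404 CPM among LJP mice. Values without both of these mice are given beside the main results.

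In Sham brain Timp2, Timp3 and Timp4 were the abundant transcripts. Per kilobase of transcript, the mean level was 83.4 CPM for Timp2, 22.3 for Timp3, 8.28 for Timp4 and 4.58 for Mmp14, the leading protease, followed by Timp1 (1.10), Mmp2 (0.821), Mmp19 (0.455), Mmp9 (0.327) and Mmp12 (0.0179), while Mmp3 had 0 counts in all 4 mice. In this order Timp1 and Mmp2 overlapped over the 4 mice, as did Mmp19 and Mmp9, and the other neighbours down to Mmp9 were apart. In the Vehicle group Timp1 stood second at 57.2 CPM per kilobase, below Timp2 (119) and above Timp3 (23.1), Mmp14 (20.6), Timp4 (15.5), Mmp3 (11.8), Mmp9 (5.63), Mmp19 (4.72), Mmp2 (2.13) and Mmp12 (0.681). The 4 Vehicle mice were too unlike for most of these neighbours to be separated, with Timp1 alone ranging from 9.25 to 115. In the LJP group the order was Timp2 (95.4), Timp3 (20.4), Timp4 (10.1), Timp1 (8.17), Mmp14 (6.99), Mmp2 (1.39), Mmp19 (1.26), Mmp9 (0.438), Mmp12 (0.434) and Mmp3 (0.382). Over the LJP mice Timp1 overlapped both Timp4 and Mmp14, Mmp2 overlapped Mmp19, and Mmp9, Mmp12 and Mmp3 overlapped one another.

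**Figure D1:**
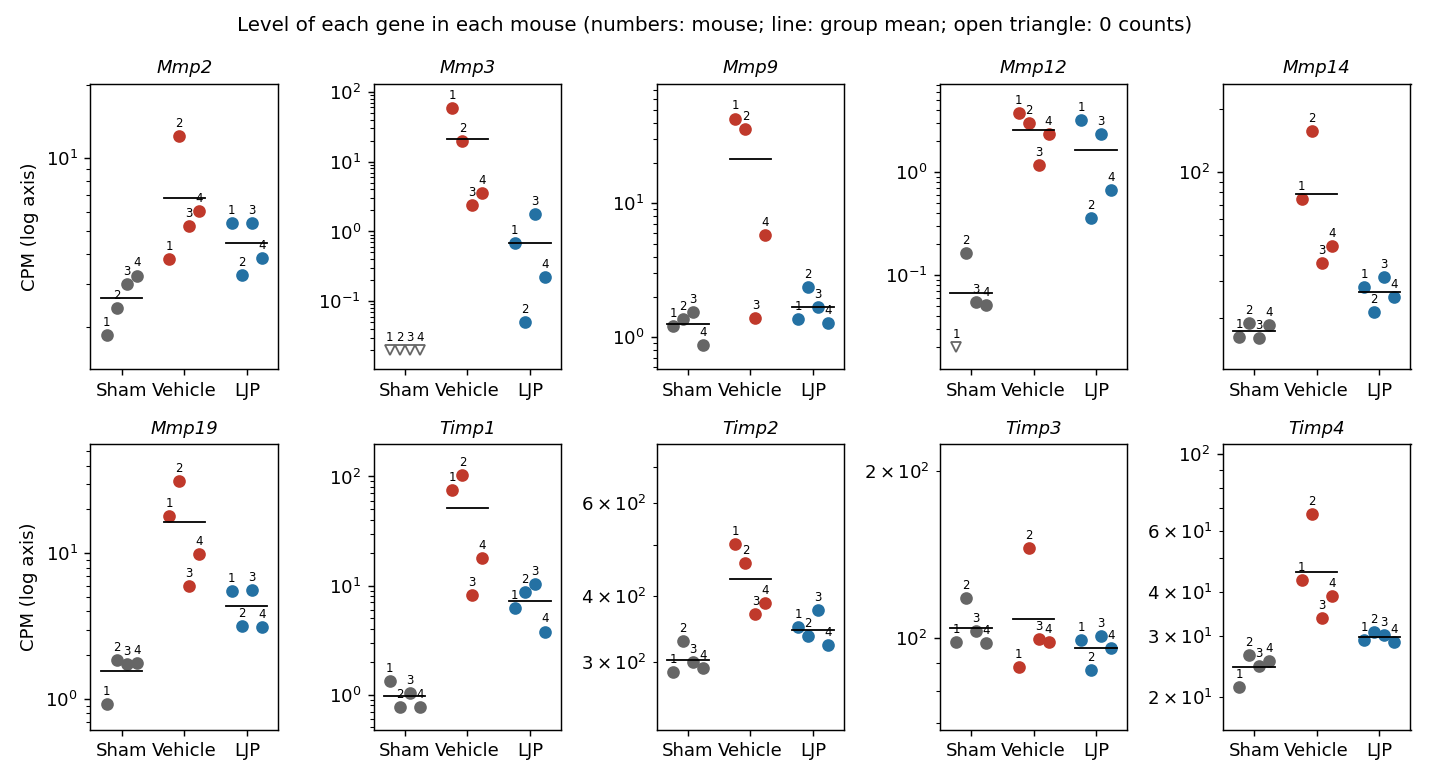
Level of each of the 10 genes in each of 12 mice, in CPM on a logarithmic axis with its own range in each panel. Points are mice with their number, lines are group means of 4 mice and open triangles are counts of 0. Vehicle mice 1 and 2 lie above Vehicle mice 3 and 4 for Mmp3, Mmp9, Mmp12, Mmp14, Mmp19, Timp1, Timp2 and Timp4, while Timp3 overlaps across the 3 groups.

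Comparison of the Vehicle with the Sham group asked how ischemia-reperfusion changed the family. Of the 10 genes, 9 rose: all 6 proteases and 3 of 4 inhibitors, with Timp3 not passing the test. Of all genes tested, 22.7% were called higher by the same rule (edgeR quasi-likelihood test, Benjamini-Hochberg adjusted p below 0.05), or 27.0% when libraries were scaled by their totals alone. The median log2 fold change was 3.74 for the proteases and 0.71 for the inhibitors, beside 0.00 over all genes tested, and 1.92 and 0.44 without Vehicle mice 1 and 2. All 4 Vehicle mice lay above all 4 Sham mice for 8 genes (all but Mmp9 and Timp3), which 20.7% of tested genes also did.

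Timp1 (Entrez Gene 21857, chrX:20870166-20874737, plus strand of GRCm38) had the largest fitted rise of the inhibitors. It stood at 1.33, 0.763, 1.04 and 0.777 CPM in Sham mice 1 to 4 and at 74.8, 103, 8.23 and 18.1 CPM in Vehicle mice 1 to 4. The groups did not overlap, although Vehicle mice 1 and 2 stood far above mice 3 and 4. The log2 fold change was 5.71 (standard error, SE, 0.78, adjusted p = 0.000338 by edgeR), which was 5.10 without Vehicle mouse 2 and 3.74 without Vehicle mice 1 and 2. Timp2 (chr11:118301061-118355411, minus strand) stood at 302 ± 18.4 CPM (SD, n = 4) in Sham and 430 ± 62.2 CPM in Vehicle mice, and rose by a log2 fold change of 0.51 (SE 0.10, adjusted p = 0.00246 by edgeR). Timp4 (chr6:115244444-115252205, minus strand) was at 21.3, 26.4, 24.5 and 25.3 CPM in Sham and 43.3, 67.0, 33.7 and 39.0 CPM in Vehicle mice. Its groups did not overlap, and it rose by 0.91 on the log2 scale (SE 0.17, adjusted p = 0.00198 by edgeR). Timp3 (chr10:86300412-86349505, plus strand) was at 98.0, 118, 103 and 97.8 CPM in Sham and 88.7, 145, 99.3 and 98.4 CPM in Vehicle mice, so only Vehicle mouse 2 lay outside the Sham range on the high side. Its log2 fold change was 0.05 (SE 0.13, adjusted p = 0.78 by edgeR), and it turned to -0.13 without Vehicle mouse 2.

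Among the proteases, Mmp3 (Entrez Gene 17392, chr9:7445822-7455975, plus strand) went from 0 counts in each Sham mouse to 1295, 462, 45 and 67 counts in Vehicle mice 1 to 4 (58.8, 19.9, 2.42 and 3.61 CPM). The groups did not overlap, and Vehicle mouse 1 stood far above the rest of its group. Against a floor of 3 counts per Sham library, the Vehicle mean was at least 129-fold higher (edgeR adjusted p = 0.00296), at least 52.6-fold higher without Vehicle mouse 1 and at least 18.4-fold higher without Vehicle mice 1 and 2. Mmp12 (Entrez Gene 17381, chr9:7344397-7360461, plus strand) had 0, 3, 1 and 1 counts in Sham and 82, 70, 22 and 44 counts in Vehicle mice. The Vehicle to Sham ratio of its summed counts per library was 38.7, with an exact 95% interval of 16.3 to 120 for counting error only (edgeR adjusted p = 0.00103 for the fit over mice). Sham mouse 2 held 3 of the 5 Sham counts, and without it the ratio was 72.6 (19.8 to 603). Mmp3 and Mmp12 entered the test through the groups in which they were high, since no Sham mouse reached the filter's count minimum of 10.

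Mmp9 (Entrez Gene 17395, chr2:164940326-164955850, plus strand) was widely split among Vehicle mice: 42.9, 35.9, 1.40 and 5.77 CPM, against 1.21, 1.36, 1.53 and 0.881 CPM in Sham mice. Vehicle mouse 3 thus lay inside the Sham range. The log2 fold change was 4.11 (SE 0.83, adjusted p = 0.00269 by edgeR), an exact two-sided permutation test of the log2 CPM gave p = 0.0571 where 0.0286 is the smallest that 4 against 4 mice allow, and the fold was 1.52 on the log2 scale without Vehicle mice 1 and 2. Mmp14 (chr14:54431598-54442456, plus strand) stood at 16.1, 18.9, 16.0 and 18.6 CPM in Sham and 74.1, 158, 36.6 and 44.3 CPM in Vehicle mice. It did not overlap between groups and rose by 2.17 on the log2 scale (SE 0.37, adjusted p = 0.00119 by edgeR), or by 1.56 without Vehicle mouse 2. Mmp19 (chr10:128790910-128800827, plus strand) went from 0.923, 1.85, 1.75 and 1.76 CPM to 18.2, 31.2, 5.97 and 9.86 CPM, a log2 fold change of 3.37 (SE 0.48, adjusted p = 0.000424 by edgeR). Mmp2 (chr8:92827290-92853421, plus strand) had the smallest rise of the proteases, from 1.85, 2.40, 3.01 and 3.27 CPM to 3.81, 12.3, 5.22 and 6.04 CPM. Its log2 fold change was 1.38 (SE 0.34, adjusted p = 0.00771 by edgeR), and here Vehicle mouse 1, the highest mouse for Mmp3, Mmp9 and Mmp12, was the lowest of its group. Without Vehicle mice 1 and 2 the same 9 genes were called, beside 15.7% of all genes tested called higher, with smaller differences on the log2 scale of 1.09 for Mmp2, 1.21 for Mmp14, 2.32 for Mmp19, 0.32 for Timp2 and 0.57 for Timp4, and of 4.70 for the count ratio of Mmp12 (95% counting interval 3.41 to 6.37).

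**Figure D2:**
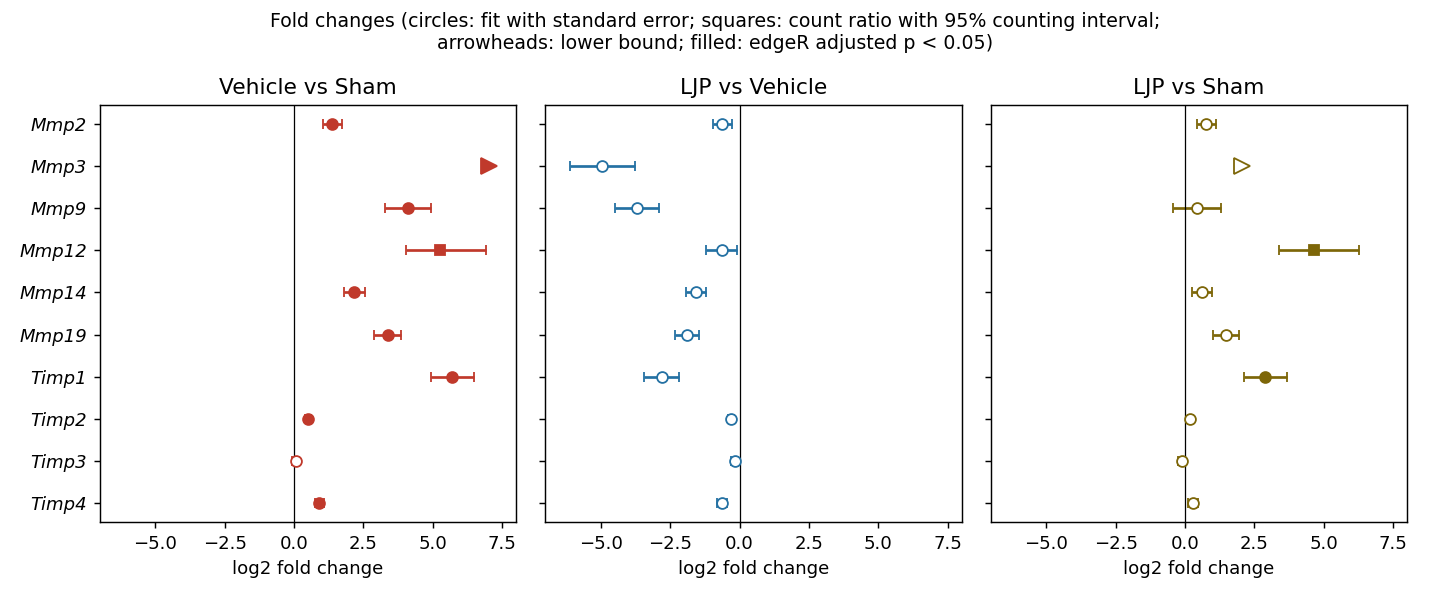
Log2 fold change of the 10 genes in the 3 comparisons. Circles are edgeR estimates with standard errors, squares are ratios of summed counts with 95% counting intervals (Mmp12 against Sham), arrowheads are lower bounds against a floor of 3 counts (Mmp3 against Sham), and filled symbols passed an edgeR adjusted p below 0.05. Filled symbols number 9 for Vehicle vs Sham, 0 for LJP vs Vehicle and 2 for LJP vs Sham.

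The LJP group was set against the Vehicle group to ask whether LJP lowered the response of the family. All 10 genes had a lower fitted level in the LJP group, but none passed edgeR's adjusted p below 0.05, where 0.0228% of all tested genes were called. At an unadjusted p below 0.05, 7 of the 10 were lower (Mmp3, Mmp9, Mmp14, Mmp19, Timp1, Timp2 and Timp4), beside 17.4% of all genes tested. The same 7 were called lower by DESeq2, the tool named in the study's methods, beside 9.36% of the genes it tested. The median log2 difference was -1.73 for the proteases and -0.47 for the inhibitors, or -0.73 and -0.21 without Vehicle mice 1 and 2. All 4 LJP mice lay below all 4 Vehicle mice for Mmp3, Mmp14, Mmp19 and Timp4, that is 4 of 10 genes, beside 5.91% of all genes tested.

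Mmp3 had 15, 1, 33 and 4 counts in LJP mice 1 to 4 (0.681, 0.0511, 1.79 and 0.223 CPM). The highest LJP mouse stayed below the lowest Vehicle mouse at 2.42 CPM, and the log2 difference was -4.94 (SE 1.17, adjusted p = 0.0678 by edgeR and 0.0081 by DESeq2). It was -3.65 without Vehicle mouse 1, -5.97 without LJP mouse 3 and -2.13 without Vehicle mice 1 and 2. Mmp9 stood at 1.36, 2.35, 1.69 and 1.28 CPM in LJP mice. These values spanned the upper part of the Sham range and went beyond it, and Vehicle mouse 3, at 1.40 CPM, lay among them. The log2 difference from the Vehicle group was -3.69 (SE 0.80, adjusted p = 0.0678 by edgeR and 0.00117 by DESeq2), and -1.10 without Vehicle mice 1 and 2.

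Mmp14 was at 28.1, 21.4, 31.6 and 25.2 CPM in LJP mice, each above every Sham mouse and below every Vehicle mouse. Its log2 difference from the Vehicle group was -1.56 (SE 0.36, adjusted p = 0.0678 by edgeR and 0.00128 by DESeq2), and -0.96 without Vehicle mouse 2. Mmp19, at 5.54, 3.17, 5.60 and 3.12 CPM, lay between the other groups in the same way, with a log2 difference from Vehicle of -1.90 (SE 0.43, adjusted p = 0.0678 by edgeR and 0.00123 by DESeq2). Mmp12, at 70, 7, 43 and 12 counts, overlapped the Vehicle group (log2 difference -0.65, SE 0.57, adjusted p = 0.453 by edgeR). Mmp2, at 5.36, 3.27, 5.38 and 3.85 CPM, overlapped it as well (log2 difference -0.62, SE 0.33, adjusted p = 0.222 by edgeR). DESeq2 called neither of these last genes.

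Of the inhibitors, Timp1 stood at 6.22, 8.69, 10.4 and 3.79 CPM in LJP mice. LJP mice 2 and 3 were above Vehicle mouse 3 (8.23 CPM), and the other Vehicle mice were above all LJP mice. The log2 difference was -2.81 (SE 0.63, adjusted p = 0.0678 by edgeR and 0.00355 by DESeq2), -2.22 without Vehicle mouse 2 and -0.85 without Vehicle mice 1 and 2. Timp4 was at 29.2, 30.6, 30.1 and 28.8 CPM in LJP mice, the narrowest spread relative to its mean of any of the 10 genes in any group, and did not overlap the Vehicle group (log2 difference -0.63, SE 0.17, adjusted p = 0.068 by edgeR and 0.0147 by DESeq2). Timp2 was at 345 ± 22.7 CPM (SD, n = 4), with 1 LJP mouse at 376 CPM inside the Vehicle range (log2 difference -0.32, SE 0.10, adjusted p = 0.0808 by edgeR and 0.0391 by DESeq2). Timp3 was at 95.7 ± 5.87 CPM and gave a log2 difference of -0.17 (SE 0.13, adjusted p = 0.384 by edgeR), which became 0.00 without Vehicle mouse 2.

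These calls turned on which Vehicle mice entered. Without Vehicle mouse 3, the lowest of its group for Mmp3, Mmp9, Mmp12, Mmp14, Mmp19, Timp1, Timp2 and Timp4, edgeR called the same 7 genes lower as DESeq2 did, beside 13.1% of all genes tested. Without Vehicle mouse 4 it also called these 7 (8.38% of genes tested). Without any 1 of the other 10 mice it called 0, and without both Vehicle mice 1 and 2 it called 0 as well (0.0443% of genes tested), with log2 differences between -2.13 and -0.05, among them -0.61 for Mmp14, -0.86 for Mmp19 and -0.29 for Timp4. With no filter on low counts edgeR called 5 (Mmp3, Mmp9, Mmp14, Mmp19 and Timp1), beside 1.80% of genes tested.

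**Figure D3:**
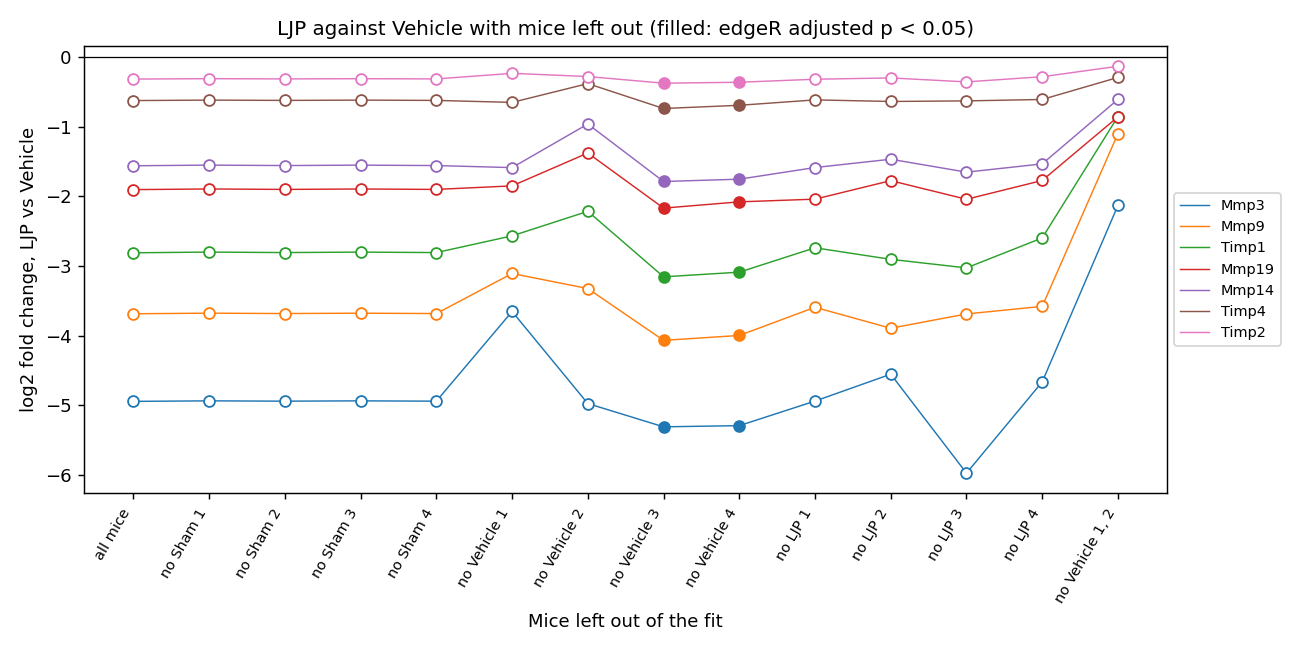
Log2 fold change of LJP against Vehicle for the 7 genes called by DESeq2, from edgeR fits of all 12 mice, of 11 mice with the named mouse left out, and of 10 mice without Vehicle mice 1 and 2. Filled points passed an adjusted p below 0.05. They occur without Vehicle mouse 3 and without Vehicle mouse 4, and at the right end Mmp3 moves from -4.94 to -2.13.

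Comparison of the LJP with the Sham group asked what remained above the level of unoccluded brain. Of the 10 genes, edgeR called 2 higher, Mmp12 and Timp1, beside 3.85% of all genes tested, and none lower. All 4 LJP mice lay above all 4 Sham mice for 7 genes (all but Mmp9, Timp2 and Timp3), as they did for 12.9% of tested genes. For Mmp3 this includes LJP mouse 2, whose 1 count is within what a count of 0 in Sham mice allows. Timp1 was 2.89 higher on the log2 scale (SE 0.76, adjusted p = 0.0499 by edgeR), a call at the edge of the threshold that was kept without Vehicle mouse 2, 3 or 4 and lost without any 1 of the other 9 mice. By DESeq2 its adjusted p was 0.00138. With edgeR it was 5.48e-05 in a fit of the Sham and LJP mice alone and 5.88e-05 without Vehicle mice 1 and 2. Mmp12 had 132 counts over the 4 LJP mice against 5 over the 4 Sham mice, a ratio per library of 24.8 with an exact 95% counting interval of 10.4 to 77.7 (edgeR adjusted p = 0.0109 over mice). The ratio was 46.5 without Sham mouse 2 and 16.2 without LJP mouse 1, and the call held without any 1 of the 12 mice.

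For Mmp3 the LJP mean was at least 4.19-fold above the Sham floor, or 1.94-fold without LJP mouse 3, with an edgeR adjusted p of 0.304 and a DESeq2 adjusted p of 0.00743. Mmp19 was 1.47 higher on the log2 scale (SE 0.47, adjusted p = 0.108 by edgeR and 0.0168 by DESeq2). The remaining log2 differences were 0.76 for Mmp2, 0.61 for Mmp14, 0.42 for Mmp9, 0.28 for Timp4, 0.19 for Timp2 and -0.12 for Timp3, with edgeR adjusted p between 0.253 and 0.845. DESeq2 called 4 of the 10 (Mmp3, Mmp12, Mmp19 and Timp1), beside 5.60% of the genes it tested. A fit of the Sham and LJP mice alone called 6 of the 8 genes it could test (Mmp2, Mmp14, Mmp19, Timp1, Timp2 and Timp4), beside 12.1% of all genes tested, with Mmp3 and Mmp12 removed by its filter. A fit without Vehicle mice 1 and 2 called 8, all but Mmp9 and Timp3, beside 12.3% of all genes tested.

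The make-up of each class moved with its level. Timp1 held 0.682% to 1.37% of the summed TIMP signal per kilobase in Sham mice. In Vehicle mice 1 to 4 it held 32.8%, 38.9%, 6.42% and 12.6%, and in LJP mice 3.45% to 7.94%. Timp2 held 72.1% to 72.8% of the sum in Sham mice and 43.0% in Vehicle mouse 2, its lowest share, although its own level was higher there than in any Sham mouse. Among the 6 proteases, Mmp14 held 69.3% to 78.6% of the sum in Sham mice and 60.3% to 70.8% in LJP mice. In Vehicle mouse 1 it held 27.5% and Mmp3 46.1%, while in Vehicle mice 2, 3 and 4 Mmp14 stayed first at 55.0%, 64.1% and 56.8%. The summed protease level per kilobase was 5.41 to 6.67 CPM in Sham mice, 70.8, 75.7, 15.0 and 20.5 CPM in Vehicle mice 1 to 4, and 8.30 to 13.7 CPM in LJP mice. The summed TIMP level was 109 to 126 CPM in Sham, 144 to 297 CPM in Vehicle and 124 to 147 CPM in LJP mice, and stayed above the protease sum in every mouse.

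**Figure D4:**
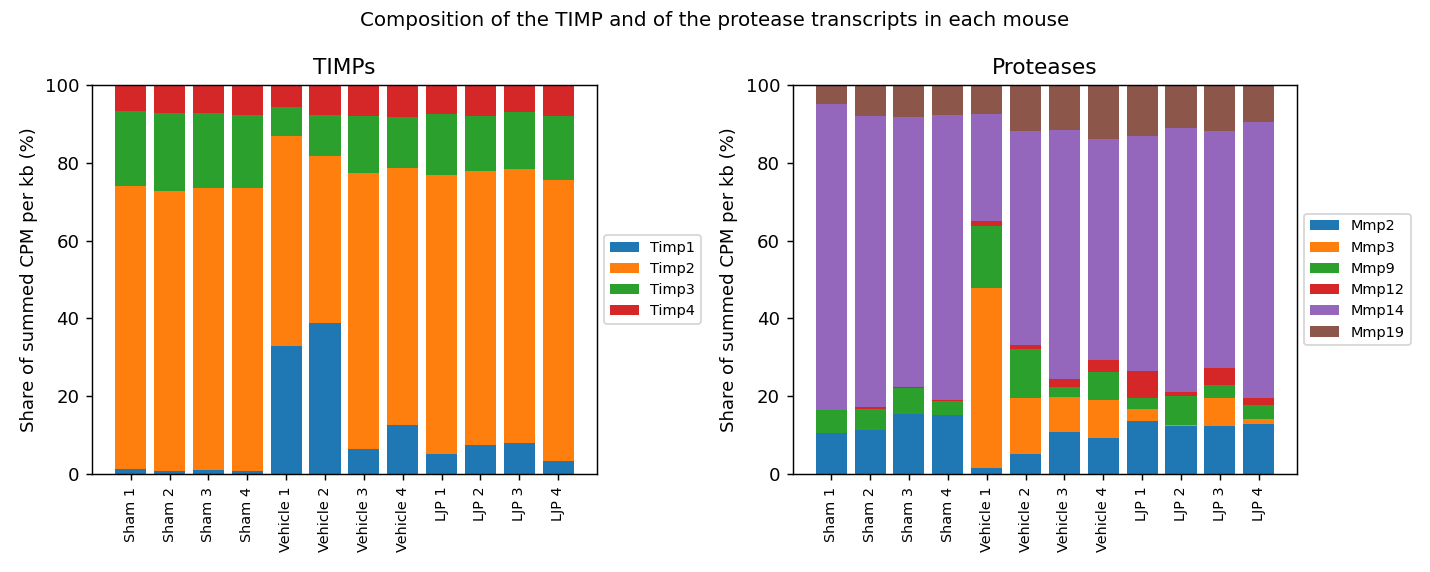
Share of each gene in the summed CPM per kilobase of the 4 TIMPs (left) and of the 6 proteases (right), in percent, for each of 12 mice. The Timp1 share reaches 38.9% in Vehicle mouse 2, and Mmp3 takes 46.1% of the proteases in Vehicle mouse 1 and is at 0 in the Sham mice.

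Levels of a protease and an inhibitor were set side by side in each mouse as differences of log2 CPM, without length correction and without a test. Mmp9 minus Timp1 was 0.33 ± 0.39 (SD, n = 4) in Sham, -1.60 ± 0.69 in Vehicle and -2.0 ± 0.45 in LJP mice, so the inhibitor gained on the protease in both occluded groups, and every occluded mouse lay below every Sham mouse. Mmp14 minus Timp2 was -4.11 ± 0.11 in Sham, -2.69 ± 0.80 in Vehicle and -3.71 ± 0.18 in LJP mice, with LJP mouse 2 level with the highest Sham mouse (both -3.97) and the other LJP mice between the groups. Mmp2 minus Timp2 was -6.82 ± 0.36, -6.08 ± 0.73 and -6.27 ± 0.29 in the same order, and the groups overlapped. Mmp3 minus Timp1 was -1.68 ± 0.93 in Vehicle and -3.72 ± 1.48 in LJP mice, and Mmp12 minus Timp1 was -3.73 ± 1.13 and -2.41 ± 1.37. For these last pairs the Sham values depend on the prior count and are not read.

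Markers of other cell types also differed between Vehicle mice, not all in the same direction. Neutrophil, macrophage and endothelial markers were highest in mice 1 and 2, while microglia and astrocyte markers were lowest there (451 and 877 CPM of microglia markers, against 972 and 1018 CPM in mice 3 and 4). Summed neutrophil markers were 5.31 to 6.79 CPM in Sham, 18.2 to 215 CPM in Vehicle and 10.1 to 22.3 CPM in LJP mice. Csf3r carried most of this sum outside Vehicle mice 1 and 2. The other 9 markers summed to 0.327 to 0.519 CPM in Sham mice, to 167, 40.7, 0.754 and 5.82 CPM in Vehicle mice 1 to 4 and to 0.307 to 1.17 CPM in LJP mice. Of these 10 markers, which include Mmp8, only Csf3r passed the filter, and Ly6g, Retnlg and Cxcr2 were at 0 in all Sham mice. Ly6g stayed at or below 4 counts in every mouse. S100a8 had 1159, 278, 4 and 33 counts in Vehicle mice 1 to 4, and at most 4 counts in any LJP or Sham mouse. Macrophage markers were 21.6 to 31.3 CPM in Sham, 144 to 589 CPM in Vehicle and 62.5 to 197 CPM in LJP mice, and 9 of 9 tested rose in Vehicle mice. Endothelial markers (8 of 10 rose in Vehicle mice) were 268 to 292 CPM in Sham and 258 to 332 CPM in LJP mice, and fibroblast and meningeal markers (6 of 10 rose) were 195 to 223 CPM and 177 to 260 CPM. Microglia markers (7 of 10 rose) were 332 to 336 CPM in Sham, 451 to 1018 CPM in Vehicle and 582 to 1066 CPM in LJP mice, lowest of the Vehicle group in mouse 1. Of the neuron markers 4 of 10 fell in Vehicle mice. Mural markers rose in 4 of 10, astrocyte markers rose in 3 and fell in 1, oligodendrocyte markers rose in 2, and choroid plexus markers rose or fell in 0 of 10 by edgeR and by DESeq2. These counts stand beside 22.7% of all tested genes called higher and 17.3% called lower, which the mural, astrocyte and oligodendrocyte counts lie near. Without Vehicle mice 1 and 2, 7 of 9 macrophage, 8 microglia, 7 endothelial, 5 mural, 6 fibroblast and meningeal, 6 astrocyte, 4 oligodendrocyte and 1 neuron markers rose, and 6 neuron markers and 1 astrocyte marker fell, beside 15.7% of all genes called higher and 14% called lower in that fit. In LJP against Vehicle edgeR on all 12 mice called no marker of any list, and without Vehicle mice 1 and 2 it called 2 fibroblast and meningeal markers lower (0.0443% of all genes). In the same comparison DESeq2 on all 12 mice called lower 6 neutrophil, 5 macrophage, 9 endothelial, 4 mural, 4 fibroblast and meningeal, 1 astrocyte, 1 oligodendrocyte, 1 choroid plexus and 0 microglia markers, and called higher 1 neuron marker. DESeq2 called 9.36% of all genes lower, a share that 1 of 10 markers is near. The part of these cells in the levels of the 10 genes was not tested.

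Mmp3 and Mmp12 lie in a cluster of 10 metalloproteinase genes that spans 427071 bases of chromosome 9, and the counts of their neighbours were read in genomic order. Mmp8, the collagenase of neutrophils, had 0, 0, 1 and 0 counts in Sham, 197, 109, 3 and 8 in Vehicle and 5, 1, 2 and 0 in LJP mice. Its Vehicle to Sham ratio of summed counts per library was 282, with an exact 95% counting interval of 50.2 to 11157 that rests on 1 Sham count, and 21.7 (3.15 to 934) without Vehicle mice 1 and 2. Mmp13, another collagenase, had 0, 0, 1 and 0 counts in Sham, 34, 28, 0 and 2 in Vehicle and 5, 0, 2 and 0 in LJP mice. Mmp10, the other stromelysin of the cluster, had at most 4 counts in any mouse, Mmp1a, Mmp1b, Mmp7 and Mmp20 at most 5 and Mmp27 at most 10. High counts in the cluster were thus found for Mmp3, Mmp8, Mmp12 and Mmp13. For Mmp8 and Mmp13 they were in Vehicle mice 1 and 2, while Mmp3 also had 45 and 67 counts in Vehicle mice 3 and 4. Mmp8 and Mmp13 did not pass the filter and were not tested by edgeR.

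**Figure D5:**
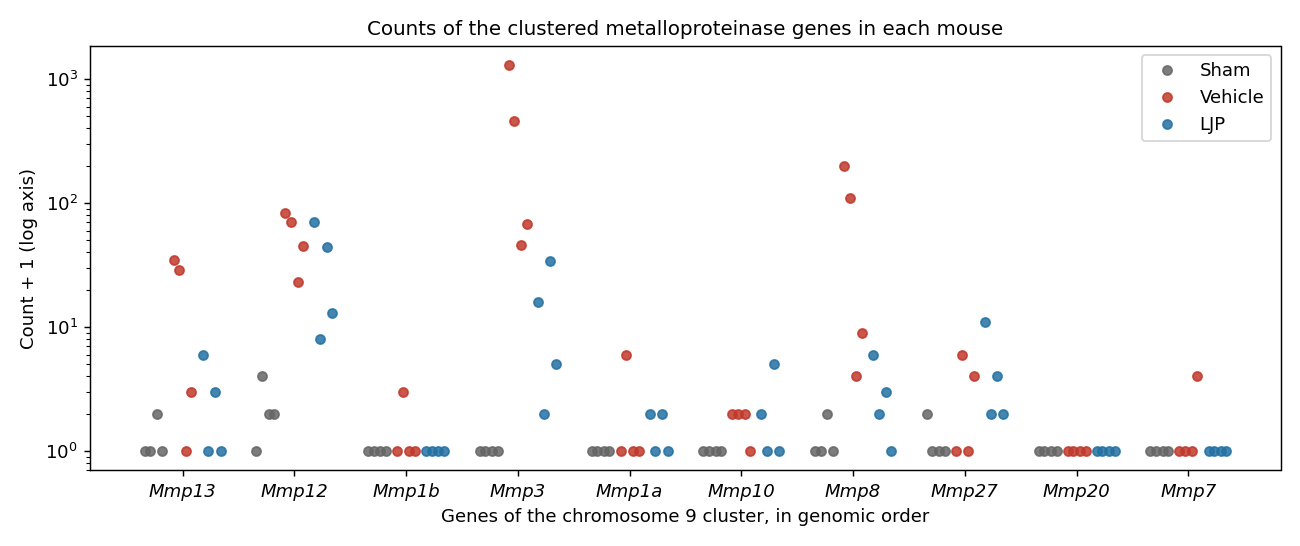
Counts plus 1, on a logarithmic axis, of the 10 metalloproteinase genes of the chromosome 9 cluster in genomic order. Each point is a mouse, with mice 1 to 4 from left to right within a group. Mmp3 reaches 1295 counts and Mmp8 197 counts in Vehicle mouse 1, and Mmp20 is at 0 in all 12 mice.

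Of the 17 metalloproteinases outside the 10 genes, 8 could be tested. In Vehicle against Sham mice 3 rose (Mmp11, Mmp25 and Mmp28) and 2 fell (Mmp17 and Mmp24), beside 22.7% of all tested genes called higher and 17.3% called lower. Without Vehicle mice 1 and 2 the counts were 2 and 2, beside 15.7% and 14% of all genes tested (2534 of 18066 lower). Mmp24, a membrane-type enzyme of neurons, had a log2 fold change of -0.37 (SE 0.09, adjusted p = 0.00882 by edgeR) and was 0.28 higher in LJP than in Vehicle mice (edgeR adjusted p = 0.0895). The median of these 8 was -0.07, which leaves out Mmp8 and Mmp13, whose counts were higher in the Vehicle group but did not pass the filter.

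Genes that activate, bind or clear these proteases were followed from a list of 26, of which 22 were tested. Of these, 18 rose and 0 fell in the Vehicle group by edgeR, beside 22.7% and 17.3% of all genes tested. The plasminogen system activates several pro-MMPs. Its activator Plau rose by 3.02 on the log2 scale (SE 0.45), the urokinase receptor Plaur by 5.40 (0.79, or 4.80 without Vehicle mouse 2) and the tissue activator Plat by 1.69 (0.37, or 1.08 without Vehicle mouse 2). Lcn2, which binds Mmp9 and protects it from degradation, rose by 7.15 (0.91, or 6.43 without Vehicle mouse 1). Cd44, which docks Mmp9 and Mmp14 at the cell surface, rose by 4.82 (0.39), and Cd63, a receptor of Timp1, by 2.32 (0.25). Furin, which cleaves pro-Mmp14, rose by 1.39 (0.27) and the clearance receptor Lrp1 by 0.47 (0.10). Reck, a membrane-anchored inhibitor of MMPs, did not pass the test (log2 fold change 0.18, SE 0.16, adjusted p = 0.385 by edgeR), with -0.03 without Vehicle mouse 2.

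Without Vehicle mice 1 and 2 the counts were also 18 and 0, with log2 fold changes of 2.31 for Plau, 3.48 for Plaur, 0.74 for Plat, 4.93 for Lcn2, 4.14 for Cd44, 2.01 for Cd63, 0.65 for Furin and 0.31 for Lrp1. In LJP against Vehicle mice none of these 22 was called by edgeR and 17 were called lower by DESeq2, beside 0.0228% and 9.36% of the genes tested. Log2 differences were -3.06 for Plaur, -2.81 for Lcn2, -1.38 for Plau, -1.02 for Plat, -0.93 for Cd44 and -0.80 for Cd63, with edgeR adjusted p between 0.0678 and 0.0975. Without Vehicle mice 1 and 2 they were -1.15, -0.61, -0.67, -0.07, -0.26 and -0.49 in the same order. Against Sham, 4 of the 22 stayed higher in LJP mice, beside 3.85% of all genes tested, or 11 without Vehicle mice 1 and 2, beside 12.3%. DESeq2 called 8 of them higher, beside 5.60% of the genes it tested. Among the 4 called by edgeR were Cd44 (log2 fold change 3.89, edgeR adjusted p = 0.000322), Cd63 (1.53, edgeR adjusted p = 0.00374) and Lcn2 (4.34, edgeR adjusted p = 0.0162, lost without any 1 of the Sham mice).

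From a list of 21 cytokines and transcription factors known to induce MMP or TIMP genes, 18 were tested, and 12 rose and 0 fell in the Vehicle group (11 and 0 without Vehicle mice 1 and 2), beside 22.7% of all genes called higher (15.7% without these mice). Osmr, the receptor of oncostatin M, a cytokine known to induce Timp1, rose by 3.60 on the log2 scale (SE 0.41) and Stat3, which transmits its signal, by 1.79 (0.29). The AP-1 components Fosl1 and Jun rose by 1.88 (0.38) and 0.91 (0.17). Of the other AP-1 genes of the list, Junb rose, and Fos, Fosb, Fosl2 and Jund were not called. Fosb stood at 19.4 to 28.2 CPM in Sham and 10.9 to 20.1 CPM in Vehicle mice. The log2 fold changes without Vehicle mice 1 and 2 were 2.61 for Osmr, 0.99 for Stat3, 0.82 for Fosl1 and 0.51 for Jun. In LJP against Vehicle mice edgeR called 0 of the 18 and DESeq2 called 11 lower (9.36% of all genes), with log2 differences of -1.38 for Osmr, -1.33 for Fosl1 and -1.01 for Stat3 (edgeR adjusted p between 0.0678 and 0.0689), or -0.39, -0.28 and -0.21 without Vehicle mice 1 and 2. Against Sham, 4 of the 18 were higher in LJP mice (3.85% of all genes), or 9 without Vehicle mice 1 and 2 (12.3% of all genes), with Osmr at 2.23 (edgeR adjusted p = 0.00657).

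Of 28 matrix and junction genes whose proteins are cut by these enzymes or stand beside them in the vessel wall, all were tested, and 17 rose and 2 fell in the Vehicle group (16 and 1 without Vehicle mice 1 and 2), beside 22.7% of all genes called higher and 17.3% called lower (15.7% and 14% without these mice). Col4a1, a basement membrane collagen, rose by 3.17 on the log2 scale (SE 0.58, or 2.21 without Vehicle mouse 2), Fn1, fibronectin, by 2.58 (0.44, or 1.87 without Vehicle mouse 2) and Cldn5, the endothelial claudin, by 2.00 (0.38, or 1.36 without Vehicle mouse 2). The tight junction gene Ocln had a log2 fold change of 0.77 and did not pass (adjusted p = 0.0602 by edgeR and 0.0394 by DESeq2). Bcan, brevican of the perineuronal matrix, fell by 0.73 (0.23, edgeR adjusted p = 0.0229), a call lost without Sham mouse 3 or Vehicle mouse 1. The log2 fold changes without Vehicle mice 1 and 2 were 1.54 for Col4a1, 1.5 for Fn1, 1.06 for Cldn5, 0.23 for Ocln and -0.30 for Bcan. In LJP against Vehicle mice edgeR called 0 of the 28 and DESeq2 called 15 lower (9.36% of all genes). Log2 differences were -2.45 for Col4a1, -1.69 for Fn1, -1.54 for Cldn5 and 0.54 for Bcan, which without Vehicle mice 1 and 2 were -0.83, -0.62, -0.61 and 0.11. Vehicle mouse 2, which of all single mice left out moved Col4a1, Fn1 and Cldn5 most, also had the highest endothelial and fibroblast markers. Cldn5 is itself one of the endothelial markers.

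Several of the 10 genes share their locus with a neuronal or other gene, which bears on reads counted without strand. Timp1, Timp3 and Timp4 lie inside Syn1, Syn3 and Syn2, the synapsin genes, on the opposite strand in each case. The library kit does not mark strand and the strand setting of the counting is not given in the sources used here. By the GENCODE annotation no exon of Timp1 or Timp3 overlapped a synapsin exon, while 1 exon of Timp4 overlapped an exon of Syn2, and 1 exon of Mmp19 overlapped an exon of Tmem198b. Reads from these shared stretches cannot be assigned, so the values of Timp4 and Mmp19 carry this uncertainty. The exon comparison does not cover reads from synapsin introns, in which the exons of Timp1 and Timp3 lie. Timp1 had only 14 to 23 counts in Sham mice, and the part of such reads in them was not tested. These host genes were chosen by position. In Vehicle against Sham mice Syn1, Syn2 and Syn3 had log2 fold changes of -0.33, -0.35 and -0.35 (edgeR adjusted p 0.0636, 0.0576 and 0.0746), the opposite sign to Timp1 and Timp4, and Syn1 is also among the neuron markers. Tmem198b rose by 1.39 (SE 0.24, adjusted p = 0.00118 by edgeR), where Mmp19 rose by 3.37.

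The genes whose log2 CPM followed Mmp9 most closely over the 12 mice were Ptges, the inducible prostaglandin E synthase (Pearson r = 0.986), Dll4 (0.985), Slc39a7 (0.981), Inhbb (0.979) and Pim3 (0.977). For Timp1 they were Hmga1 (0.990), Tead1 (0.988), Slc11a1 (0.988), Socs3 (0.987) and Mt2 (0.985). Among the 10 genes themselves, Mmp14 and Timp4 had the highest correlation (0.978) and Mmp12 and Timp3 the lowest (0.107). All of these were picked from all tested genes or pairs over the same 12 libraries, which fall into 3 groups and include the high Vehicle mice 1 and 2, and they are given as a description.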

How the data were processed

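RNA was measured in ischemic hemispheres of 12 mice, 4 per group, grouped by the sample labels. The authors deposited raw counts of reads per gene and mouse, with no normalization, from poly(A) libraries sequenced as paired-end reads. The submitters' processing notes name featureCounts and DESeq2 and the builds GRCm39 and mm10, and the positions of all 10 genes in the deposited table match GRCm38. The aligner, the strand setting and the treatment of reads shared between genes are not given in the sources used here.

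Counts were fitted in R 4.3.3 with edgeR 4.0.16 (filterByExpr, TMM factors, quasi-likelihood test, 1 coefficient per group, all 12 mice). Adjustment was by Benjamini-Hochberg over 17558 genes, with calls at an adjusted p below 0.05. CPM are counts scaled to the normalized library size, and levels between genes were compared per kilobase of the gene length in the deposited table. The log2 differences between pairs of genes used a prior count of 2. Exact permutation tests were two-sided on log2 of CPM plus 0.5. Folds against a group with 0 counts in every mouse are lower bounds against 3 counts per library. Where a group's mice had at most 3 counts each, the ratio of summed counts per library is given with an exact conditional interval (scipy 1.17.1). These intervals and bounds hold for counting error alone.

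The genes and gene lists were chosen with earlier results of these data known. The text names the 10 genes, genes from a fixed set of 25 out of the lists, marker genes at or near 0, the 5 genes closest to Mmp9 and to Timp1, and genes that share a locus or cluster with them; 1 gene of the set is not reported here. The marker genes, host genes, cluster neighbours and AP-1 genes printed outside that rule were picked after their values were seen.

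Alternatives were DESeq2 1.42.0, RLE factors or library totals, no filter, a fit of the compared groups only, the replicate number as a block, each mouse left out, a prior count of 0.5 and, chosen after seeing the data, both Vehicle mice 1 and 2 left out. On counts simulated for Vehicle against Sham with 17331 genes, the test recovered 153 of 200 changed genes with 8 false calls, and made 0 false calls in the comparison without change. The simulated counts of a gene had the same spread in every group. Mice of a group differed by more than sampling noise (chi-square per degree of freedom at least 2.48). This measure was 2.48 to 6.19 between Sham mice and 41.3 to 111 for pairs with Vehicle mouse 1 or 2. Error rates under such unequal spread were not simulated. Promoters came from a RefSeq table of GRCm38.p6. The plots were drawn with matplotlib 3.10.9.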

Additional observations from a re-analysis of the deposited data

Results flagged for a closer look

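Each of the 10 genes was checked in each of the 3 groups for a mouse standing apart from its group, 30 checks in all, of which chance is expected to mark 1.5. Mmp19 in the Sham group was marked: Sham mouse 1 stood at 0.923 CPM, below the other 3 Sham mice at 1.75 to 1.85 CPM, and its gap to the nearest of them was 0.894 of the group's range, above Dixon's critical value for 4 mice.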

How the results depend on the processing

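The 9 calls of Vehicle against Sham kept the same genes under every alternative run, the replicate block included. For LJP against Vehicle the count of 0 called genes became 7 with DESeq2, 5 without a filter and between 0 and 7 with single mice left out (7 without Vehicle mouse 3 or 4). For LJP against Sham the count of 2 became 4 with DESeq2, 6 in a fit of the compared groups only, 1 with the replicate block, 8 without Vehicle mice 1 and 2, and between 1 and 3 with single mice left out. The cause of these changes was not tested, except that the fit of the compared groups did not test Mmp3 and Mmp12. Without Vehicle mice 1 and 2 the LJP against Sham log2 differences hardly moved (Mmp14 0.608 to 0.601, Timp4 0.284 to 0.276). For Mmp14 and Timp4 the edgeR adjusted p went from 0.408 to 0.0017 and from 0.412 to 0.0195. Each fit estimates the spread of a gene over all groups in it. Scaling by RLE factors or library totals changed no count of calls.

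Timp3 reversed for Vehicle against Sham without Vehicle mice 1 and 2 (-0.082), and with single mice left out ranged from -0.13 (without Vehicle mouse 2) to 0.13. For LJP against Vehicle it ranged from -0.26 to 0.0035 (without Vehicle mouse 2). Reck for Vehicle against Sham ranged from -0.030 (without Vehicle mouse 2) to 0.26. None of these values was called. The difference between groups in Mmp3 minus Timp1 moved with a prior count of 0.5, from 1.68 to 3.55 for Vehicle against Sham and from -0.36 to 1.14 for LJP against Sham, because Sham mice had 0 counts of Mmp3.

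Replicate numbers did not pair the mice: of 12 same-numbered pairs, 1 had a correlation of deviations over 0.1 (range -0.32 to 0.11), and 2 of 12 mice correlated best with their own number. With the replicate number as a block, 9, 0 and 1 of the 10 genes were called in Vehicle against Sham, LJP against Vehicle and LJP against Sham, the last being Mmp12. Of all 17558 genes tested in that fit, 3451 were called higher, 2 lower and 405 higher, in the same order. The test planned for genes too low for the filter was not run, since all 10 passed it. Mmp3 and Mmp12 in Sham mice, and Mmp8 and Mmp13 in Sham and LJP mice, lie at or near the limit of 3 counts, where depth sets the precision.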
